A study of Mus musculus with 3 samples.

Results

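The miRNAs miR-431, miR-433, miR-127, miR-434 and miR-136 come from 5 hairpins that lie on the strand opposite to the gene Rtl1 in the imprinted Dlk1-Dio3 region of mouse chromosome 12. Both arms of each hairpin had values, so that the group holds 10 of the 693 miRNAs of the files. They were taken by name and position, with earlier results of these data known. Short RNA of the ES cell line TAG1 was sequenced under 3 conditions, each with a library of its own. TAG1 cells derive from the J1 ES cell line and carry the receptor Alk4*, which is always active and is switched on by doxycycline (Dox). The untreated library (0 hr) came from cells in medium with serum (FBS) and LIF, without SB or Dox. For the SB library, cells were exposed over 16 hrs to 30 µM of an inhibitor that blocks the phosphorylation of Smad2/3, named SB-431541 in the labels and SB-431542 in the methods. For the Dox library, the exposure to SB was followed by 12 hrs of Dox at 1 µg/µl. SB and Dox cells were in medium with Knockout Serum Replacement (KSR) in place of FBS, also with LIF, so SB and medium cannot be told apart in a comparison with the untreated library. Dox and SB cells also differ in the added 12 hrs, the end of the exposure to SB and the Dox itself. In that comparison these cannot be told apart from the induction of Alk4*.

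In the Dlk1-Dio3 region the chromosome of maternal origin is transcribed into long noncoding RNAs, among them Meg3, Rian and Mirg, from which many miRNAs and small nucleolar RNAs are processed. The protein-coding genes of the region, among them Rtl1, are expressed from the paternal chromosome. Rtl1 descends from a retrotransposon and is needed for the fetal vessels of the placenta. The miRNAs transcribed opposite to it match its mRNA without mismatches and are known to direct its cleavage. Expression of the maternal RNAs of this region is also known to differ between ES cell and iPS cell lines and to go along with their developmental potential. Most miRNA hairpins are cut by Drosha and Dicer into a duplex of a 5p and a 3p arm, of which usually only one is kept in the RNA-induced silencing complex.

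The mature sequences are shown because the libraries separate the 2 arms of each hairpin, and several results below differ between arms. They are given in the order of the hairpins along the + strand, as listed by RefSeq for GRCm38.p6, with the seed (bases 2 to 8) in capitals.
miR-431-5p: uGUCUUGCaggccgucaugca
miR-431-3p: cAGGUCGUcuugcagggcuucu
miR-433-5p: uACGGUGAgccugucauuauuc
miR-433-3p: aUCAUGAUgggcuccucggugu
miR-127-5p: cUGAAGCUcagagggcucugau
miR-127-3p: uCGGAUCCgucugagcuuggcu
miR-434-5p: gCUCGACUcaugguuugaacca
miR-434-3p: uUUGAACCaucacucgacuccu
miR-136-5p: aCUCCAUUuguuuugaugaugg
miR-136-3p: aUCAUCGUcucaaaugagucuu

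All 10 names matched a RefSeq entry. No seed was shared by 2 members, and 0 other mature miRNAs of the RefSeq table carried any of these seeds. Each mature sequence occurred in 1 hairpin of the table, so reads of full length pointed to 1 hairpin. The arms of miR-431 shared a run of 10 bases and those of miR-434 a run of 9, against 4 to 5 in the other hairpins. GC content ran from 36.4% in both arms of miR-136 to 59.1% in miR-431-3p and miR-127-3p. 

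On the + strand of GRCm38 the hairpins are Mir431 at chr12:109590447-109590537, Mir433 at chr12:109591715-109591838, Mir127 at chr12:109592846-109592915, Mir434 at chr12:109594506-109594599 and Mir136 at chr12:109595327-109595388. They span 4942 bases, with 727 to 1590 bases between neighbours. Rtl1 is annotated on the − strand at chr12:109589193-109600330, and all 5 hairpins lie opposite to its coding sequence. The Rtl1 transcript held 1 perfect match for each of the 10 mature sequences. As examples, these are the matches for the member with the deepest fall after SB and for miR-434-3p, an abundant arm that was lowest after Dox, written 5′ to 3′ with the bases that pair with the seed in capitals.
Rtl1 site of miR-433-3p: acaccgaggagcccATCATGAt
Rtl1 site of miR-434-3p: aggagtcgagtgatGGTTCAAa

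The annotation also places Mir432 between Mir434 and Mir136, and Mir3071 on the − strand over the hairpin of miR-136. These miRNAs were not analysed here. Rtl1 mRNA was not measured in these libraries.

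Levels are in rpm, the reads of each miRNA per 1000000 of the reads to which the authors scaled its library. Ranges in parentheses are exact 95% intervals, from the Poisson distribution for levels and by Clopper-Pearson for shares and ratios of 2 libraries. Those of changes in an arm ratio are normal approximations, and all cover counting error only. No condition had a replicate, so no p-value was computed. A difference was called by the criteria of the study, which ask for levels in a ratio of 5 to 4 or more and for a Z-score of the read proportions outside its 95% limits. Such a Z-score compares the reads of 2 libraries and not 2 conditions. The files imply 10955686 reads for the untreated, 11354692 for the SB and 9895513 for the Dox library, of which 28.3%, 24.1% and 33.4% fell on listed miRNAs. These totals are below those the study states for its libraries, most so for Dox, and the reads left out are not given in the sources used here. The median log2 ratio over all 693 miRNAs was −0.19 for SB over untreated, 0.38 for Dox over SB and 0.19 for Dox over untreated, and members are read against these shifts. As markers of ES cells, 12 miRNAs of the miR-290 and miR-302 clusters, 1 per hairpin, were all listed. Their lowest level was 0.91 rpm, in Dox cells. They summed to 72934 rpm in untreated, 57800 rpm in SB and 81251 rpm in Dox cells. Singly they were split, with 4 higher and 4 lower in SB than in untreated cells, and 6 higher and 5 lower in Dox than in SB. All 14 miRNAs of a list known from fibroblasts, the cell type used as feeder cells, were listed too. Their lowest level was 0.10 rpm, the value of 1 read, in Dox cells. The list summed to 5630 rpm in untreated, 12996 rpm in SB and 5919 rpm in Dox cells. Of its 14 miRNAs, 13 were higher in SB than in untreated cells and 12 lower in Dox than in SB. In bulk RNA fewer cells of a type and less RNA per cell cannot be told apart.

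The members summed to 6372 rpm (6325 to 6420) in untreated cells, 4529 rpm (4490 to 4569) after SB and 6451 rpm (6401 to 6501) after Dox. The sum was thus 1.41-fold lower after SB, with a log2 ratio of −0.49 (−0.51 to −0.48), and 1.42-fold higher after Dox than after SB, with a log2 ratio of 0.51 (0.49 to 0.53). Dox and untreated cells differed 1.01-fold. The sum moved opposite to the summed fibroblast miRNAs, whose part in the result was not tested. As a share of the reads on listed miRNAs, the members held 2.25% (2.23 to 2.27) in untreated, 1.88% (1.86 to 1.89) in SB and 1.93% (1.92 to 1.95) in Dox cells. By this measure the fall after SB remained, but little of the rise after Dox did.

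The hairpin of miR-127 held most of these reads, at 50.7% of all member reads in untreated, 64.8% in SB and 68.0% in Dox cells. Without it, the other 8 arms summed to 3142 rpm (3109 to 3175) in untreated cells, 1596 rpm (1573 to 1620) after SB and 2066 rpm (2038 to 2095) after Dox. The fall after SB was then 1.97-fold, the rise after Dox 1.29-fold, and the Dox level stayed 1.52-fold below the untreated level. The rise held under the authors' scaling, where its log2 ratio was 0.37 (0.34 to 0.40), but not under others. It was −0.096 with the libraries scaled to the reads on listed miRNAs, −0.0070 by the median of ratios, −0.013 by TMM and 0.089 by quantile normalization. In Dox cells miR-127 was thus above and the sum of the others below the untreated level. miR-127 is known to act on Rtl1 in the placenta.

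The order of the arms by level was similar in the libraries, with some exchanges. miR-127-3p was the most abundant in each, followed in untreated cells by miR-433-3p and miR-434-3p. The other arms were at 159 rpm or below in untreated cells, down to 17.5 rpm for miR-433-5p. There the intervals of miR-136-3p and miR-431-3p overlapped, as did those of miR-431-5p and miR-434-5p and those of miR-434-5p and miR-433-5p. In SB cells miR-434-3p stood above miR-433-3p, and in Dox cells below it again. miR-127-5p was below miR-136-5p in untreated cells but above it in Dox cells, at 156 against 95.9 rpm. In Dox cells miR-431-3p was above miR-136-3p, at 44.3 against 31.9 rpm, and miR-431-5p was the lowest arm, at 11.2 rpm. Levels of different miRNAs also depend on how well each ligates to the adaptors.

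**Figure D1:**
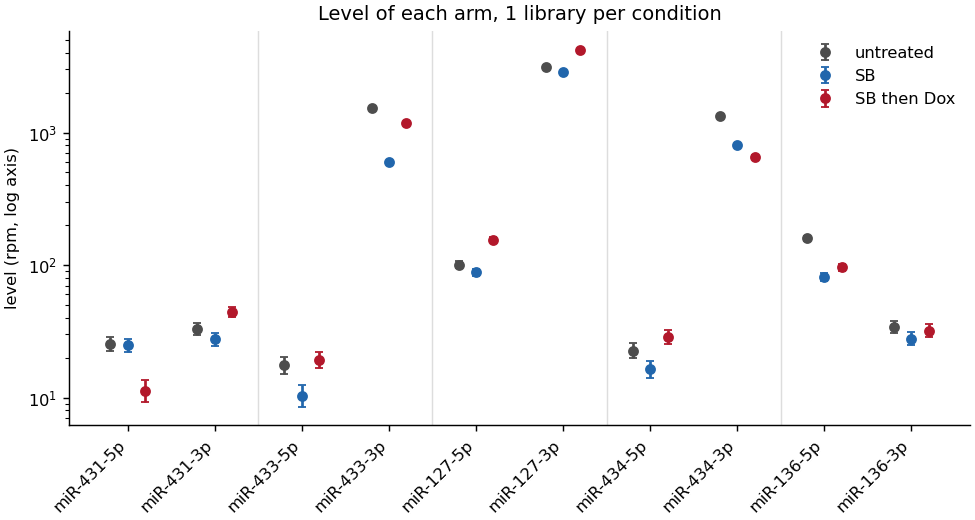
Level of each arm in rpm on a log axis in the untreated, SB and Dox libraries (1 library each), in the order of the hairpins on the + strand. Bars are 95% Poisson intervals of the reads, and are smaller than the points for abundant arms; miR-433-3p is lowest in SB at 599 rpm, and miR-434-3p and miR-431-5p are lowest in Dox at 658 and 11.2 rpm.

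In the comparison of SB with untreated cells, which asks what the loss of p-Smad2/3 does, 5 of the 10 members were called lower and 0 higher. Over all listed miRNAs 30.2% were called lower and 15.3% higher. The members were deeper than most, however. Counting just the miRNAs that had 100 reads or more in all 3 libraries, the members included, 42.6% were called lower and 17.5% higher. Under the authors' scaling the share of lower members was thus near this background. The median log2 ratio of the members was −0.38, against −0.19 over all listed miRNAs. The lower members were both arms of miR-433, both arms of miR-434 and miR-136-5p. Under the 4 other scalings 4 or 5 members were lower, against 20.8% to 25.4% of all listed miRNAs. There 0 members were higher, against 20.8% to 23.8% of all. Shares among the deeper miRNAs were not taken under these scalings.

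Of the more abundant arms, miR-433-3p changed most. It had 1525 rpm (1502 to 1549) in untreated cells, 599 rpm (585 to 614) after SB and 1177 rpm (1156 to 1199) after Dox. The log2 ratio of SB over untreated was −1.35 (−1.39 to −1.31), a 2.54-fold fall, and 38 of the 693 miRNAs had a lower ratio. The rarer arm of the same hairpin, miR-433-5p, fell too, from 17.5 rpm (15.1 to 20.2) to 10.3 rpm (8.52 to 12.3), with a log2 ratio of −0.77 (−1.11 to −0.43). After Dox it was at 19.3 rpm (16.7 to 22.2). This hairpin thus had its lowest level in the SB library on both arms.

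miR-434-3p, the third arm by level in untreated cells, had 1325 rpm (1304 to 1347) in untreated cells, 809 rpm (793 to 826) after SB and 658 rpm (642 to 674) after Dox. For SB over untreated this gave a log2 ratio of −0.71 (−0.75 to −0.67). Its partner miR-434-5p had 22.6 rpm (19.9 to 25.6), 16.3 rpm (14.0 to 18.8) and 28.7 rpm (25.5 to 32.2) in the same order, with a log2 ratio of −0.47 (−0.76 to −0.19) for SB over untreated. Both arms were lower after SB, but only the 5p arm was higher again after Dox. The call of miR-434-5p in this comparison was lost under 3 of 4 other scalings, in which its log2 ratio was −0.29 to −0.24.

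miR-136-5p, the only main 5p arm among the members, had 159 rpm (152 to 167) in untreated cells, 81.1 rpm (76.0 to 86.5) after SB and 95.9 rpm (89.9 to 102) after Dox. SB over untreated gave a log2 ratio of −0.97 (−1.09 to −0.85). Its partner miR-136-3p had 34.1 rpm (30.8 to 37.8), 27.8 rpm (24.8 to 31.1) and 31.9 rpm (28.5 to 35.7). The log2 ratio of −0.29 (−0.52 to −0.07) of miR-136-3p did not reach the fold threshold, and its 3 intervals overlapped.

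The remaining hairpins were not called in this comparison. miR-127-3p had 3130 rpm (3097 to 3163) in untreated and 2845 rpm (2814 to 2876) in SB cells, with a log2 ratio of −0.14 (−0.16 to −0.12). miR-127-5p gave −0.18 (−0.31 to −0.06), miR-431-5p −0.04 (−0.28 to 0.21) and miR-431-3p −0.26 (−0.48 to −0.04). Relative to the median of all listed miRNAs these values were 0.06 for miR-127-3p, 0.01 for miR-127-5p, −0.06 for miR-431-3p and 0.16 for miR-431-5p. Under the 4 other scalings the ratios of miR-127-3p and miR-431-5p were above 0, at 0.04 to 0.17 and 0.04 to 0.19, and that of miR-127-5p lay on either side of 0. The hairpins of miR-433 and miR-127 are separated by 1007 bases, so neighbours on the same strand had different ratios.

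**Figure D2:**
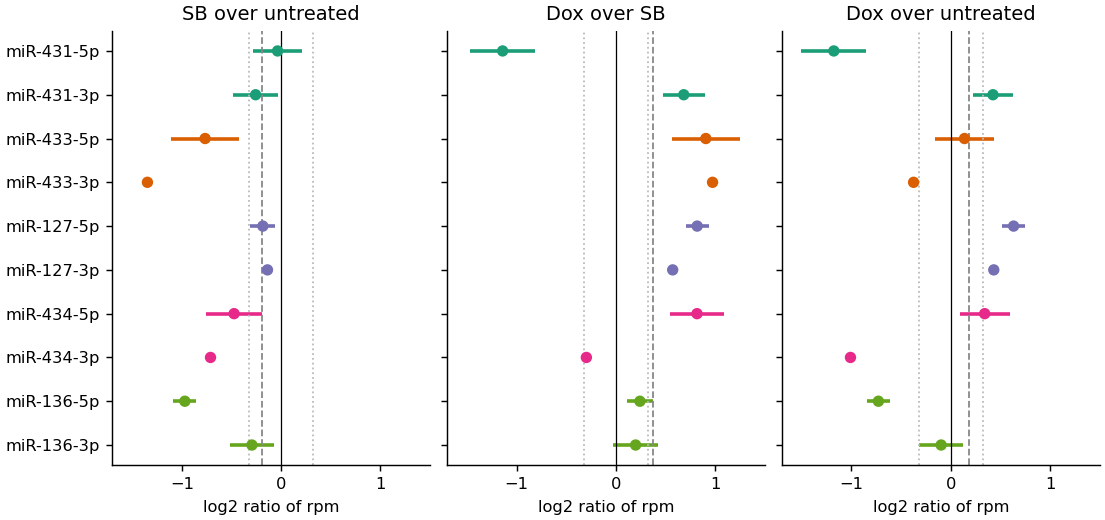
Log2 ratio of rpm of each arm in the 3 comparisons, with 95% exact intervals of the read numbers and 1 color per hairpin. Dashed lines mark the median of all 693 miRNAs and dotted lines the fold threshold of 5 to 4; in the middle panel miR-431-5p and miR-434-3p lie below 0 under the authors' scaling plotted here, and both arms of miR-136 lie below 0 as well under the 4 other scalings.

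In the comparison of Dox with SB, which asks what the return of p-Smad2/3 does, 6 of the 10 members were called higher and 1 lower. Over all listed miRNAs 41.7% were called higher and 17.9% lower, and of those with 100 reads or more in all 3 libraries 57.4% and 22%. The share of higher members was therefore close to that of other miRNAs of this depth. The median log2 ratio of the members was 0.63, against 0.38 over all listed miRNAs. With the libraries scaled to the reads on listed miRNAs, 4 members were higher and 2 lower, against 23.5% and 31.5% of all listed miRNAs.

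The 2 arms of miR-433 were again close to each other. The log2 ratio of Dox over SB was 0.97 (0.93 to 1.02) for miR-433-3p and 0.91 (0.5660 to 1.2501) for miR-433-5p. Both met the criteria under the authors' scaling and under all 4 others. miR-127-5p, with 100.5 rpm (94.6 to 107) in untreated, 88.4 rpm (83.0 to 94.1) in SB and 156 rpm (148 to 164) in Dox cells, had a log2 ratio of 0.82 (0.70 to 0.93). The abundant miR-127-3p reached 4228 rpm (4188 to 4269) in Dox cells, a log2 ratio of 0.57 (0.55 to 0.59) over SB. The call of miR-127-3p was lost under all 4 other scalings, where its log2 ratio was 0.10 to 0.25. miR-136-5p and miR-136-3p had log2 ratios of 0.24 (0.11 to 0.37) and 0.20 (−0.03 to 0.43) and were not called. Under the 4 other scalings both turned negative, at −0.23 to −0.0081 for miR-136-5p and −0.27 to −0.17 for miR-136-3p, and were not called lower either.

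In miR-431 and miR-434 the arms of 1 hairpin went in opposite directions after Dox. miR-431-5p had 25.4 rpm (22.5 to 28.5) in untreated, 24.7 rpm (21.9 to 27.8) in SB and 11.2 rpm (9.23 to 13.5) in Dox cells. It was 2.21-fold lower in Dox than in SB cells, with a log2 ratio of −1.14 (−1.47 to −0.82), and was the member called lower. miR-431-3p had 33.0 rpm (29.6 to 36.5), 27.6 rpm (24.6 to 30.8) and 44.3 rpm (40.2 to 48.6), and was higher in Dox than in SB cells with a log2 ratio of 0.68 (0.47 to 0.90). This call was lost under 3 of the 4 other scalings, with ratios of 0.21 to 0.30. The sum of both arms showed little of this, at 58.3 rpm (53.9 to 63.0), 52.3 rpm (48.2 to 56.7) and 55.5 rpm (50.9 to 60.3) in the 3 libraries. miR-431 is known from muscle satellite cells and from axon growth.

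For miR-434 the 5p arm was higher after Dox, with a log2 ratio of 0.82 (0.54 to 1.09), while the 3p arm had a log2 ratio of −0.30 (−0.34 to −0.25). The 3p value fell short of the fold threshold under the authors' scaling and passed it under the 4 other scalings, where it lay between −0.77 and −0.68. The hairpin as a whole went from 825 rpm (809 to 842) in SB to 687 rpm (671 to 703) in Dox cells.

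The ratio of the 2 arms of a hairpin is not changed by scaling a library with 1 factor, since both arms come from the same library. Quantile normalization does change it. In miR-431 the 5p arm held 43.5% (39.6 to 47.5) of the reads of the hairpin in untreated cells, 47.3% (43.2 to 51.4) in SB cells and 20.2% (16.9 to 23.8) in Dox cells. In miR-434 the 5p arm held 1.68% (1.48 to 1.90), 1.97% (1.70 to 2.28) and 4.18% (3.72 to 4.68). The Dox library thus differed from both others in these hairpins, in favor of the 3p arm in miR-431 and of the 5p arm in miR-434. From SB to Dox the log2 ratio of 5p over 3p reads changed by −1.82 (−2.20 to −1.44) in miR-431 and by 1.11 (0.84 to 1.39) in miR-434, with intervals from the counting errors of the 4 read numbers.

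Changes of this size were not rare in these libraries. Of 239 hairpins with both arms listed, 62 had at least 100 reads on each arm in every library, all 5 hairpins of the group among them. From SB to Dox 20 of the 62 (32.3%) changed by over 1 log2 unit in either direction, and the median size of the change was 0.61. Only 4 had a larger change than miR-431, whereas 18 had a larger one than miR-434. From untreated to Dox cells the changes were −1.60 (−1.98 to −1.23) in miR-431 and 1.35 (1.10 to 1.60) in miR-434, with 3 and 5 hairpins above them. With 1 library per condition, a change of arms in the cells cannot be told apart from a difference between library preparations.

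The other hairpins kept their arm ratios more closely after Dox. The 5p arm of miR-433 held 1.14% (0.98 to 1.31) of its reads in untreated, 1.69% (1.40 to 2.02) in SB and 1.61% (1.39 to 1.86) in Dox cells. For miR-127 the share was 3.11% (2.93 to 3.30), 3.01% (2.83 to 3.20) and 3.56% (3.38 to 3.74). miR-136, in which the 5p arm is the more abundant, gave 82.3% (80.6 to 83.9), 74.5% (71.9 to 76.9) and 75.0% (72.5 to 77.4). The changes from SB to Dox were −0.07 (−0.40 to 0.27) in miR-433, 0.25 (0.13 to 0.36) in miR-127 and 0.04 (−0.22 to 0.30) in miR-136. From untreated to SB cells, miR-136 changed by −0.68 (−0.92 to −0.43) and miR-433 by 0.58 (0.25 to 0.92), and 15 and 23 of the 62 hairpins had a larger change. The shift of miR-136 and miR-433 therefore stood between untreated cells and both KSR libraries, and that of miR-431 and miR-434 between Dox and the others.

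**Figure D3:**
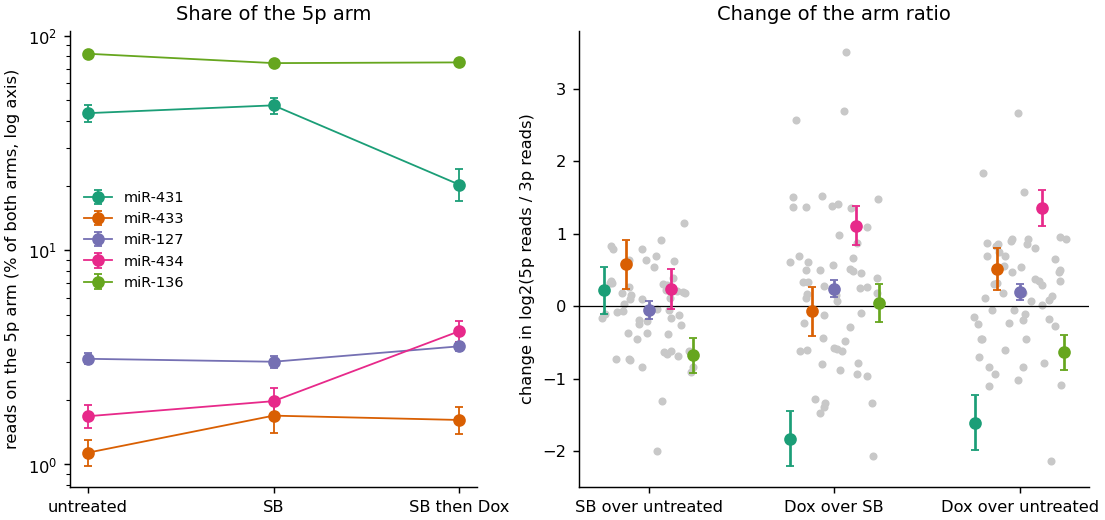
Left, share of the 5p arm among the reads of each hairpin (percent, log axis) in the 3 libraries with 95% Clopper-Pearson intervals; lines join the libraries as a guide. Right, change of the log2 ratio of 5p over 3p reads in each comparison for the 5 hairpins (colors, 95% intervals) and the other hairpins with at least 100 reads on each arm (grey); miR-431 is near the lower end and miR-434 above most others when Dox is compared.

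Dox and untreated cells are the conditions with active Smad2/3 in the design of the study, and the members differed between them in either direction. miR-127-5p, miR-127-3p, miR-431-3p and miR-434-5p were called higher in Dox cells, and miR-431-5p, miR-434-3p, miR-136-5p and miR-433-3p were called lower. These are 4 of 10 each way, against 30.6% higher and 19.8% lower over all listed miRNAs, and 40.9% higher and 23.7% lower among those with 100 reads or more in all 3 libraries. With the libraries scaled to the reads on listed miRNAs, 1 was higher and 5 were lower, against 20.6% and 29.1% of all listed miRNAs. The log2 ratio of Dox over untreated was −1.18 (−1.51 to −0.86) for miR-431-5p, −1.01 (−1.05 to −0.97) for miR-434-3p, −0.73 (−0.84 to −0.61) for miR-136-5p and −0.37 (−0.41 to −0.34) for miR-433-3p. It was 0.43 (0.41 to 0.45) for miR-127-3p and 0.63 (0.52 to 0.75) for miR-127-5p. These 4 lower arms and miR-127-5p kept their calls under every scaling tried. The median over the members was 0.02, against 0.19 over all listed miRNAs.

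Being lower after SB and higher again after Dox, the p-Smad2/3 activation profile of the study, was met by 3 of the 10 members, miR-433-3p, miR-433-5p and miR-434-5p. Over all listed miRNAs 20.9% met it, and 33.3% of those with 100 reads or more in all 3 libraries. The comparisons share the SB library, so a low value in that library alone lowers one ratio and raises the other. miR-433-3p and miR-433-5p met the profile under all 5 scalings.

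The other miRNAs of the Dlk1-Dio3 region whose names matched the annotation were set beside the members. Listed miRNAs without such a match, such as both arms of miR-299, are missing from these lists. On the Meg3 side of the hairpin of miR-431, 13 miRNAs from 7 hairpins were placed. Of these 7 (53.8%) were lower after SB and 6 (46.2%) were higher after Dox than after SB. Of the 5 miRNAs of miR-341, miR-1188 and miR-370 in Rian, 4 were lower after SB and 3 higher after Dox. Among the 63 miRNAs placed from miR-379 to miR-3072, 45 (71.4%) were lower after SB and 36 (57.1%) higher after Dox. Over all listed miRNAs 30.2% were lower after SB and 41.7% higher after Dox. Among those with 100 reads or more in all 3 libraries the shares were 42.6% and 57.4%. The median log2 ratio of SB over untreated was −0.38 in the members, −0.60 on the Meg3 side, −0.70 in Rian and −0.66 downstream. For Dox over SB it was 0.63, 0.63, 0.71 and 0.52 in the same order. All these lists had a median below that of all miRNAs after SB and above it after Dox, and the members had the median nearest to that of all miRNAs after SB. Summed, the 81 other miRNAs placed in the region had 26503 rpm in untreated, 13304 rpm in SB and 23032 rpm in Dox cells. This gave a log2 ratio of −0.99 after SB, against −0.49 for the members. Without miR-127, left out after seeing the data, the members gave −0.98, while nothing was left out of the other 81. For Dox over SB the log2 ratio of the sums was 0.79 in the 81 others, 0.51 in the members and 0.37 without miR-127. For Dox over untreated it was −0.20, 0.02 and −0.60 in the same order.

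**Figure D4:**
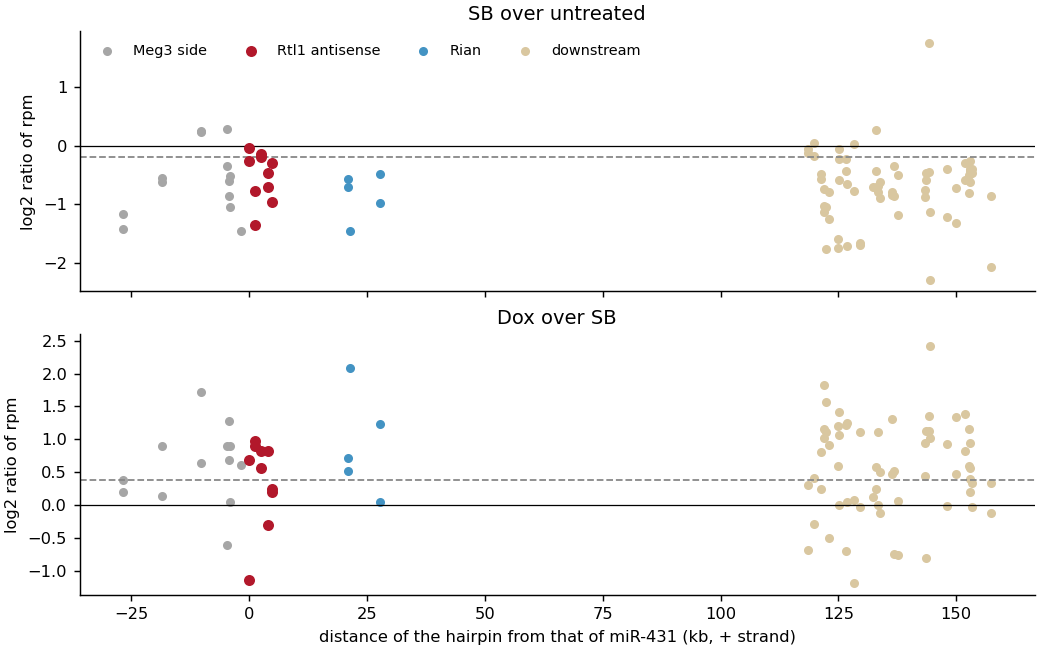
Log2 ratio of rpm for SB over untreated (top) and Dox over SB (bottom) of the listed miRNAs placed by name in the Dlk1-Dio3 region. The horizontal axis gives the distance of the hairpin from that of miR-431 in kb along the + strand. Dashed lines mark the median of all 693 miRNAs; the members (red) span −1.35 to −0.04 in the top panel and −1.14 to 0.97 in the bottom panel, within the range of the miRNAs downstream.

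The miRNAs whose pattern was most like that of each main arm were found by the distance between their log2 ratios of SB over untreated and of Dox over SB, over 3 libraries, among 281 other miRNAs with 100 reads or more in all 3 libraries. Nearest to miR-433-3p were miR-329-5p, at a distance of 0.11, and miR-154-3p, at 0.13, both from the downstream part of the region. For miR-434-3p the nearest was miR-329-3p, at 0.22, which had 542 rpm in untreated, 313 rpm in SB and 220.7 rpm in Dox cells, and then miR-301a-3p at 0.31. The arms of miR-329 thus stood beside different members, with log2 ratios of Dox over SB of 0.92 for miR-329-5p and −0.50 for miR-329-3p. miR-127-3p was nearest to miR-542-3p at 0.06 and miR-124-3p at 0.06, and miR-431-3p to miR-191-5p at 0.03 and miR-345-3p at 0.06, all from outside the region. For miR-136-5p they were miR-1306-5p and miR-130b-3p, both at 0.18. With 2 ratios behind each distance, many miRNAs lie close to each other by these measures.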

How the data were processed

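Small RNA libraries from total RNA of TAG1 ES cells, 1 per condition, were sequenced on an Illumina GAII in 2 runs that the authors pooled. According to the methods, adaptors were clipped with the FASTX tool kit, reads longer than 16 bases were aligned with Bowtie 0.12.7 to mature and then hairpin sequences of miRBase release 18 without mismatches, and miRNAs with 10 or more reads over the 3 samples were kept. Reads with more than 1 match went to the miRNA closest in length, or to each where several tied. The deposited files give rpm, which the authors computed by scaling reads to 1000000 reads of the sample.

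From these values the read numbers were recovered here: all 693 values of each library were whole multiples of 1 step (tolerance 0.01 reads). Fold changes are ratios of rpm without a pseudocount. Z-scores compare read proportions. Groups follow the titles of the samples. Hairpins were placed by RefSeq (GRCm38.p6) and Rtl1 by GENCODE M21 (GRCm38), matched by name. Listed miRNAs of the region whose names had no such match were not placed. The build of the authors is not needed for alignment to miRBase. Alternatives were 4 scalings (reads on listed miRNAs, median of ratios, TMM, quantile normalization), fold thresholds of 1.5 and 2, no Z-score, at least 100 reads in each library and a pseudocount of 1 rpm. For arms, 0.5 reads were added, and quantile normalization was tried after seeing the data. The miRNAs named are the members and, for the main arm of each hairpin, the 2 nearest in pattern. The members, lists and alternatives were chosen with earlier results of these data known. Python 3.11.15, scipy 1.17.1 and pandas 2.3.3 were used.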

Additional observations from a re-analysis of the deposited data

How the results depend on the processing

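The ratios of libraries depended on their scaling. Values are given in the order of scaling to the reads on listed miRNAs, median of ratios, TMM and quantile normalization. The log2 ratio of the summed members was −0.26, −0.31, −0.29 and −0.29 for SB over untreated, 0.042, 0.13, 0.13 and 0.20 for Dox over SB, and turned to −0.22, −0.18, −0.16 and −0.091 for Dox over untreated. Without miR-127 the sum gave −0.75, −0.80, −0.77 and −0.88 for SB over untreated, −0.84, −0.80, −0.78 and −0.79 for Dox over untreated, and −0.096, −0.0070, −0.013 and 0.089 for Dox over SB, for which the direction turned under the first 3, values added after seeing the data. The median log2 ratio of the members was −0.15, −0.20, −0.18 and −0.26 for SB over untreated, 0.16, 0.25, 0.24 and 0.30 for Dox over SB, and turned to −0.22, −0.18, −0.16 and −0.13 for Dox over untreated. A pseudocount of 1 rpm gave medians of −0.37 and 0.62 for the first comparisons. Under each of the scalings 2 members were lower in Dox than SB, in place of 1, while the share of all listed miRNAs went from 17.9% to between 25.1% and 31.5%. Those higher in Dox than untreated were 1, 1, 1 and 2, in place of 4, while the share of all went from 30.6% to between 20.6% and 24.4%. A fold threshold of 1.5 also left 1 of these, against 22.8% of all. A fold threshold of 2 left 1 member lower after SB (9.67% of all), 0 higher in Dox than SB (22.2%), 2 lower (8.08%) and 0 higher (13.6%) in Dox than untreated, and 0 with the activation profile (5.92%).

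Of 30 ratios of single members, between 3 and 6 lost their call under each scaling, and 1 or 2 gained one. With 0.5 reads added to each arm no change of an arm ratio left its interval. Arm ratios cannot move under a scaling by 1 factor, but can under quantile normalization, an alternative for them chosen after seeing the data. There the change in miR-127 became −0.20 for SB over untreated and 0.038 for Dox over untreated, outside its intervals, and those of the other hairpins stayed within theirs, with −1.82 in miR-431 and 1.19 in miR-434 for Dox over SB. Without the Z-score every count of members was the same. All members have over 100 reads in each library, so a minimum of 100 reads could not change their counts. No paired analysis was possible because each condition had 1 library, and for the same reason no library could be left out. Depth limited the arms under 30 rpm, of which the lowest had 111 reads in Dox cells.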
